A study of Mus musculus with 8 samples.

Results

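The nuclear genes of the mitochondrial respiratory chain were examined in sorted intestinal stem cells of mice with activated β-catenin, with and without the histone methyltransferase gene *Mll1* (*Kmt2a*). They were taken as the protein-coding genes whose symbol begins with Nduf, Uqcr, Atp5 or Cox4 to Cox8, or is *Sdha*, *Sdhb*, *Sdhc*, *Sdhd*, *Cyc1* or *Cycs*. The rule found 89 genes among the 25485 of the scaled table that the authors deposited, and all 89 were also found among the 53801 genes of the count table. Of these, 44 belong to complex I, 4 to complex II, 9 to complex III, 15 to complex IV and 16 to complex V, and *Cycs* encodes cytochrome c. The rule uses names and no measured values, and it was written with earlier results of these data known.

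RNA was sequenced from Lgr5-GFP+ cells of 8 mice, and each library came from a small pool of sorted cells of 1 mouse. All 8 mice carried Lgr5-EGFP-IRES-CreERT2 and the β-cat GOF allele, a β-catenin that cannot be degraded. 4 of them were labelled β-cat GOF; Mll1-/- and are called the knockout-labelled libraries, and 4 were labelled β-cat GOF; Mll1+/- and are called the control-labelled libraries. Tamoxifen was injected at 50 mg/kg on 3 consecutive days at an age of 4 to 6 weeks, and intestinal crypts were taken 10 days after induction. Cre is made only where the *Lgr5* locus is active. In recombined cells both groups carry the β-catenin mutation, and those of the control-labelled mice have lost 1 copy of *Mll1*. No group of unmutated stem cells was there to compare with. Cells were sorted on Lgr5-GFP and not on recombination, and the authors reported unrecombined crypts beside mutant ones. The pools may hold unrecombined cells, and their share was not tested. Replicates 1 to 4 of a label are its mice in the order of their accessions, and per-library values are given in that order.

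The respiratory chain sits in the inner mitochondrial membrane. Complex I takes electrons from NADH and complex II from succinate, and both pass them to ubiquinone. Complex III hands them on to cytochrome c, and complex IV passes them to oxygen. Complexes I, III and IV pump protons across the membrane, and complex V (ATP synthase) uses the returning protons to make ATP. Most subunits are encoded in the nucleus and imported, and a small set is encoded by mitochondrial DNA, so that complexes I, III, IV and V are built from the products of both genomes. Intestinal stem cells are known for a high mitochondrial activity compared with the Paneth cells next to them.

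Several members have promoters without a TATA box that carry sites of the nuclear respiratory factor NRF1, of ETS factors such as GABP (NRF2) or of YY1. These are the factors best known for the shared control of this gene set, so their core letters were looked up in the 300 bases around the start of each gene (250 before and 50 after, RefSeq, build GRCm38.p6). Windows were found for 73 of the 89 members. The NRF1 letters GCGCATGCG, on either strand, stood in the windows of 11 of the 73 members (15.1%), against 4.12% of the tested genes with a window and 1.95% of all genes with one. The ETS letters CCGGAAG stood in 18 of 73 (24.7%), against 20.5% and 9.93%, and the YY1 letters AAGATGGCG in 8 of 73 (10.96%), against 3.64% and 1.64%. Tested genes are expressed genes, and their share is the closer reference of the pair. A match is a string of letters and was not tested as a binding site.

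The promoters of 4 members are printed, because 3 of these genes had the smallest p of complexes I, III and IV between the labels and *Cycs* is the carrier between the last 2 of these. Capitals mark the matched letters. The NRF1 letters read nearly the same on both strands, and in the *Ndufaf4* window the matches on the 2 strands overlap in 1 run of capitals.
Ndufaf4, chr4:24897833-24898132, plus strand: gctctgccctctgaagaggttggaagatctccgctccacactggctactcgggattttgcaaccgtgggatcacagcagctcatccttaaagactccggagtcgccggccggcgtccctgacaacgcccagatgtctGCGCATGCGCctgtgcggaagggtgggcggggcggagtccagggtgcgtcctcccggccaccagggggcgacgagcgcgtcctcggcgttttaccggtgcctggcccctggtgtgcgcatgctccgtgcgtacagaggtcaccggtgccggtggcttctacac
Uqcrh, chr4:116075021-116075320, minus strand: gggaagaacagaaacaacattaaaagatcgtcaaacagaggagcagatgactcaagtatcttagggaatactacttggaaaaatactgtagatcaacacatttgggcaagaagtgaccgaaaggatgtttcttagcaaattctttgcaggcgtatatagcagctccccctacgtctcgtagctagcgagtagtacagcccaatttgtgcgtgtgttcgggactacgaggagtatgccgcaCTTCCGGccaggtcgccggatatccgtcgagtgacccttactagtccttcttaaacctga
Cox6b1, chr7:30626065-30626364, minus strand: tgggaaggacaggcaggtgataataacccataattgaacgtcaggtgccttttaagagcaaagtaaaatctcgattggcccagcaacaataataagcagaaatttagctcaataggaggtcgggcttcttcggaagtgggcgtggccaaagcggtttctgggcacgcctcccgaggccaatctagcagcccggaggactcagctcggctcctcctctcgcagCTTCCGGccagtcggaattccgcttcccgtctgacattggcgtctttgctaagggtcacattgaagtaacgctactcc
Cycs, chr6:50566520-50566819, minus strand: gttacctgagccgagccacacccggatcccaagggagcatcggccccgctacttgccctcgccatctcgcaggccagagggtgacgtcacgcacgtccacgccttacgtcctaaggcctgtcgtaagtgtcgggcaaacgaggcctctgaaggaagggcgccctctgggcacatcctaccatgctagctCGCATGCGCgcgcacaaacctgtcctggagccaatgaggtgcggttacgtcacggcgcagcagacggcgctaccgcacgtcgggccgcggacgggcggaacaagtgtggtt
*Ndufaf4* and *Cycs* carry the NRF1 letters, and *Uqcrh* and *Cox6b1* carry the ETS letters in reverse, CTTCCGG. The genes themselves lie on mm10 at chr4:24898083-24905001 (*Ndufaf4*, plus strand), chr4:116066965-116075071 (*Uqcrh*, minus strand), chr7:30616861-30626151 (*Cox6b1*, minus strand) and chr6:50562563-50566538 (*Cycs*, minus strand).

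Each library held 14468751 to 16847793 counts on genes, and since molecules were not tagged before amplification, counts hold PCR copies as well. *Kmt2a* was not lower in the knockout-labelled libraries, with 63.5 ± 10.7 CPM (CPM is the count scaled to library size by TMM, SD, n = 4) against 53.8 ± 7.45 CPM (log2 fold change 0.24, SE 0.17, edgeR adjusted p = 0.710). A count over the whole gene also holds reads outside the floxed part, and the pools may hold cells that did not recombine. It does not check the deletion, so genotypes are given here as labelled. The sorted cells carried the stem cell marker *Lgr5* at 214.8 to 308.1 CPM in every library. Markers of other cell types moved with the genotype labels. In the knockout-labelled libraries 10 of 12 goblet cell markers had higher values. Lower ones were found for 8 of 10 Paneth, 9 of 10 tested enterocyte and 5 of 5 tested enteroendocrine markers. In these 4 lists, 1, 6, 5 and 2 of the lower values had an unadjusted p under 0.05. Higher values at that p numbered 7, 1, 1 and 0. Over all tested genes 3.75% were lower and 5.4% higher at that p. The summed levels were 754.9 to 1334 against 634.2 to 848.7 CPM (goblet), 1598 to 5104 against 3159 to 4985 CPM (Paneth), 380.8 to 425.5 against 479.5 to 582.5 CPM (enterocyte) and 2.50 to 7.79 against 10.3 to 76.4 CPM (enteroendocrine). The 8 immune cell markers summed to 1.24 to 7.12 and 4.07 to 6.76 CPM, with *Cd79a* at 0 in 6 libraries, and of the 6 tuft cell markers *Il25* was at 0 in all 8 (sums of 2.96 to 9.27 against 2.51 to 3.29 CPM). Of the 10 stem cell markers 7 had lower values (median -0.046), and their sums were 9892 to 16580 against 21080 to 25020 CPM. Nearly all of that sum was *Olfm4* (12160 ± 2796 against 20740 ± 1705 CPM, lower without overlap), while *Axin2* was higher without overlap and the other 8 overlapped. The part of these cell types in the results below was not tested, and in pooled cells fewer cells of a type and less RNA per cell cannot be told apart.

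The library numbers form 2 stretches of consecutive numbers, called runs here, each with 2 mice of each label. The labels do not say what these stretches are. Knockout-labelled mouse 3 stood apart, with a rank correlation of 0.909 to its nearest library over all tested genes, against 0.947 to 0.966 for the others. Without it the log2 fold change of 49 of the 89 members moved by over 1.5 times or changed sign (7 changed sign), while the median over the members did not move. It held the highest value of 19 of the 89 members and the lowest of 26.

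Messages of the respiratory chain were abundant. The 89 genes took 3.401 to 3.547% of the nuclear counts in the knockout-labelled and 3.465 to 3.676% in the control-labelled libraries, so the ranges overlapped. Per length (TPM, counts per gene length scaled to a common sum, mean of the 8 libraries), the median subunit reached 872 in complex IV, 477 in complex III, 295 in complex V, 269 in complex I and 216 in complex II, while the median of all 16445 tested genes was 6.14. The highest levels belonged to small subunits of complexes III and IV. *Uqcr10*, a small subunit of complex III, led with 1793 TPM, followed by *Cox6b1* with 1755, *Cox8a* with 1688, *Cox6a1* with 1307 and *Cox4i1* with 1106 TPM. *Ndufa2* was the highest of complex I with 1020 TPM, *Sdhd* of complex II with 522 TPM and *Atp5k* of complex V with 682 TPM.

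**Figure D1:**
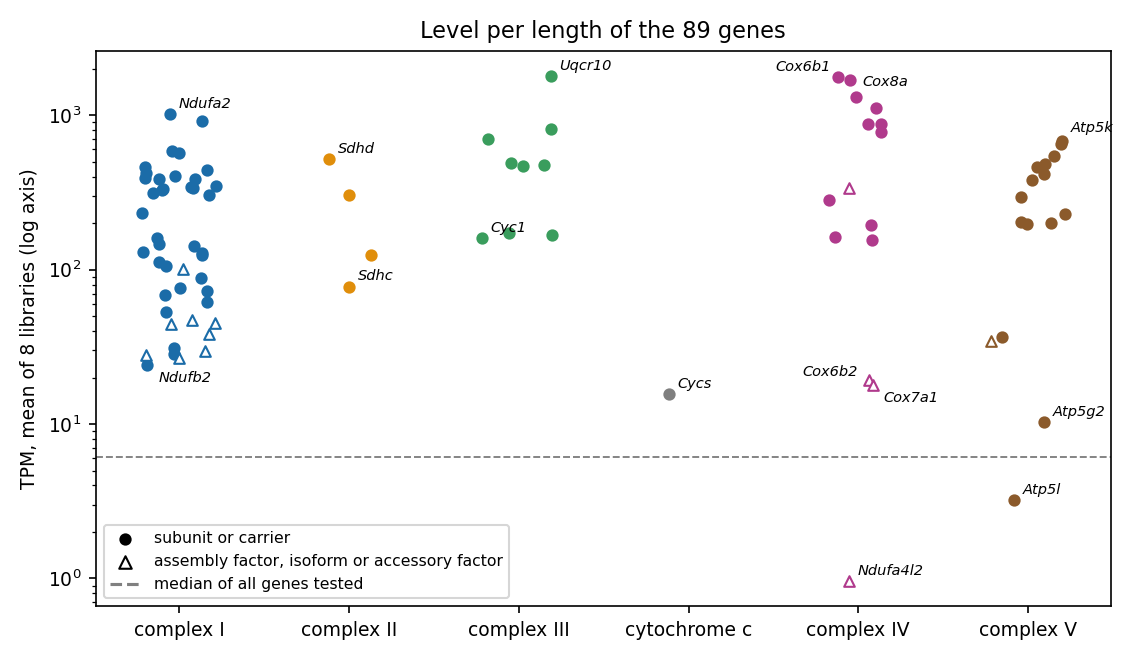
Level per length of the 89 genes by complex, as TPM on a log axis (mean of 8 libraries, 1 point per gene). Filled circles are subunits and carriers, open triangles are assembly factors, isoforms and accessory factors, and the dashed line is the median of all tested genes at 6.14 TPM. Nearly all members lie above the line, and *Atp5l* and *Ndufa4l2* lie below it.

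Where complex IV exists in tissue isoforms, the libraries held the ubiquitous one. *Cox4i1* reached 1106 TPM, while its counterpart *Cox4i2* had 3 counts in the 8 libraries together. *Cox6a1* stood at 1307 TPM and the muscle isoform *Cox6a2* had 6 counts. *Cox8a* stood at 1688 TPM, and *Cox8b* and *Cox8c* had 2 counts and 0 counts. A count of 0 allows up to 3 counts, or 0.162 to 0.241 CPM in a library. *Cox7a2* stood at 872 TPM and the muscle isoform *Cox7a1* at 17.9 TPM. *Cox6b1* stood at 1755 TPM and the testis isoform *Cox6b2* at 19.2 TPM. *Ndufa4*, first placed in complex I and now in complex IV, stood at 875 TPM, and its hypoxia-induced paralogue *Ndufa4l2* at 0.964 TPM. For *Cox7a2*, *Cox6b1* and *Ndufa4* the lowest library lay far above the highest library of the other gene of the pair (765.5 against 31.7, 1535 against 29.8 and 780.9 against 1.34 TPM).

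Low levels of some members must be read beside their processed copies. The authors counted only uniquely mapped reads, and the mouse genome holds many intronless copies of these genes. Of the 31-base words in the coding sequence, 100% also occurred in transcripts of another annotated gene for 6 members: *Atp5g1*, *Atp5g2*, *Atp5l*, *Cycs*, *Ndufab1* and *Ndufb4*. The share was 50% or more for 19 of the 89 members and under 10% for 50. Cytochrome c shows the size of this. *Cycs* held 4191 counts in the 8 libraries together, at 15.7 TPM, while *Gm10053*, which shares all of its coding words, held 4207 counts. *Atp5l*, subunit g of complex V, had 1618 counts (3.20 TPM), and *Gm10221*, with the same coding words, had 3706 counts. *Cox7c* had 14361 counts and *Gm12338*, which shares 83.7% of its coding words, had 23816. Of the 39 members that share 10% or more, 7 had fewer counts than the copy that shares most. Reads that fitted a member and its copy equally well were not counted, and which locus made the reads was not tested.

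In the knockout-labelled libraries, most members of the chain had lower values than in the control-labelled libraries, each by a small amount. The log2 fold change was below 0 for 75 of the 89 members and above 0 for 14, while it was below 0 for 49.2% of the 16445 tested genes. All 89 members passed the filter on low counts. The median log2 fold change was -0.12 over the members and 0.0076 over all tested genes. No single member passed the test at an adjusted p under 0.1 with edgeR, where 0.0851% of tested genes did (14 genes). The smallest adjusted p was 0.280 (*Ndufaf4*). At an unadjusted p under 0.05 there were 12 lower and 0 higher members, which is 12 of 89 against 3.75% of the tested genes for lower and 5.4% for higher values. The 4 libraries of a label did not overlap those of the other for 12 members that were lower and 1 that was higher (*Atp5d*), against 2.94% and 3.34% of tested genes. DESeq2 called 4 members at an adjusted p under 0.1 (*Ndufaf4*, *Ndufaf1*, *Cox6b1* and *Uqcrh*, all lower, adjusted p 0.0374, 0.0562, 0.0681 and 0.0906), against 2.47% of tested genes, and limma-voom called 0.

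These counts stand beside a small spread between mice. The median SD of the members within a label was 0.162 on the log2 scale, against 0.406 over all tested genes, and what part this has in the counts without overlap was not tested. Members are also measured on the same libraries and are not independent of each other. Without knockout-labelled mouse 3, 78 members were lower and 11 higher, the median was -0.12, and 15 members were lower without overlap and 1 higher, against 4.58% and 5.28% of the tested genes for the same 3 against 4 libraries.

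**Figure D2:**
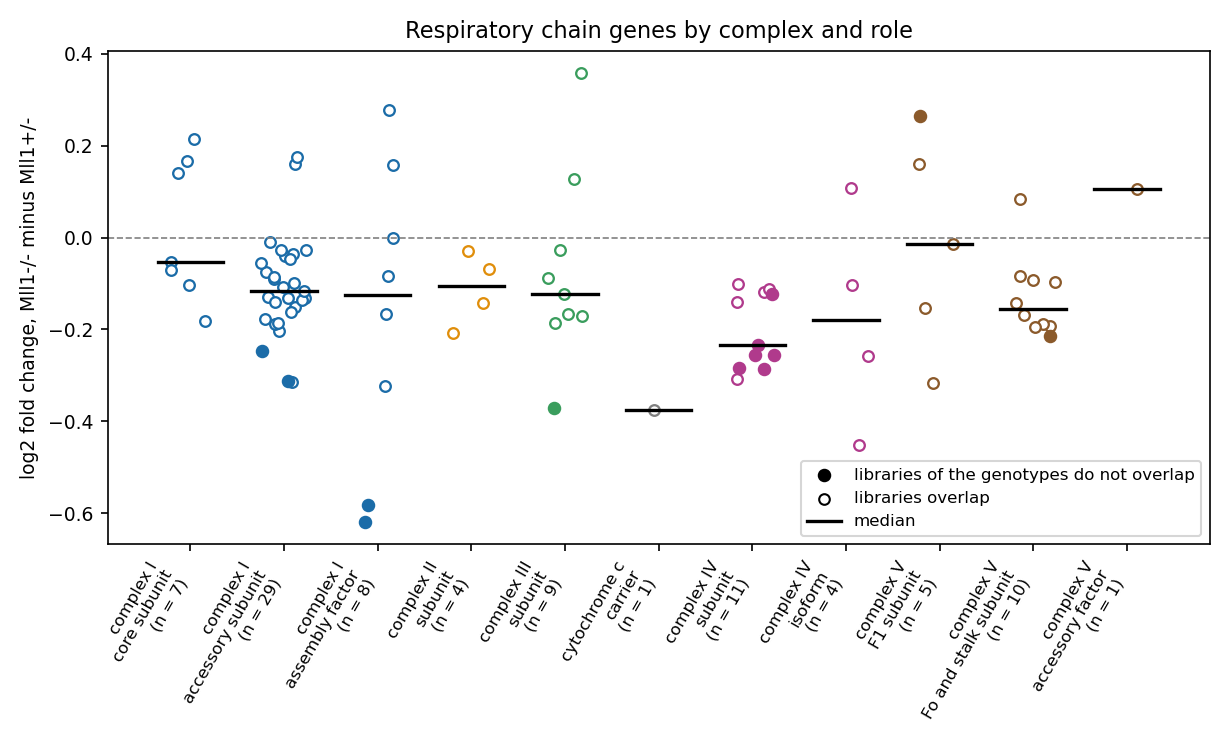
Log2 fold change (libraries labelled Mll1-/- minus those labelled Mll1+/-, 4 each, edgeR) of each of the 89 genes by complex and role. Filled points are genes whose libraries do not overlap between the labels and bars are medians. The 11 subunits of complex IV all lie below 0, and core subunits of complex I lie on both sides of 0.

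With all 8 libraries, complex IV, cytochrome c oxidase, was the complex with the lowest median. Without knockout-labelled mouse 3 its 11 subunits had a median of -0.18, and complex II was lower, at -0.21. With all libraries, the 11 nuclear subunits of complex IV all had lower values in the knockout-labelled ones. Their median log2 fold change was -0.23, with a range from -0.31 to -0.10. Of the 11 subunits, 6 had no overlap between labels, against 2.94% of tested genes for lower values. At an unadjusted p under 0.05 there were 6 as well, against 3.75% of tested genes for lower values. The count of 6 at that p was 2 without knockout-labelled mouse 3, 2 without control-labelled mouse 2 and 3 without control-labelled mouse 3, and all 11 stayed below 0 whichever library was left out. *Cox6b1*, a subunit that faces the intermembrane space, reached 731.9, 698.5, 673 and 701.6 CPM in the knockout-labelled and 824.2, 869.5, 905.1 and 820.9 CPM in the control-labelled libraries. The highest knockout-labelled library lay below the lowest control-labelled one, and the log2 fold change was -0.29 (SE 0.082, edgeR adjusted p = 0.352).

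*Cox4i1*, the subunit to which ATP binds to slow the enzyme, reached 959.4, 921.7, 1096 and 949.7 CPM against 1141, 1115, 1172 and 1190 CPM. The highest knockout-labelled value, 1096 CPM in mouse 3, lay just below the lowest control-labelled one of 1115 CPM, and the log2 fold change was -0.23 (SE 0.087, edgeR adjusted p = 0.482). *Cox7b* reached 464.2 to 584.7 CPM against 585.9 to 730.5 CPM, so that the labels nearly met. *Cox6c* reached 519.4 to 638.8 against 646.9 to 755.7 CPM, *Ndufa4* 575.2 to 782.2 against 792.2 to 852.4 CPM and *Cox7a2* 476.5 to 511.7 against 513.6 to 551.7 CPM. In each of these the libraries of the labels touched closely without overlap.

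*Cox8a* had the lowest log2 fold change of the 11, -0.31 (SE 0.13, edgeR adjusted p = 0.524), and its libraries overlapped, with 442.8 to 580.2 against 551.8 to 722.8 CPM. *Cox6a1*, *Cox5b*, *Cox7c* and *Cox5a* overlapped as well, with log2 fold changes of -0.12, -0.14, -0.11 and -0.10, which were -0.086, -0.17, -0.048 and -0.063 without knockout-labelled mouse 3. *Cox5a* and *Cox7c* were higher in the knockout-labelled libraries of run 1 and lower in those of run 2. The other 9 subunits were lower in both runs.

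**Figure D3:**
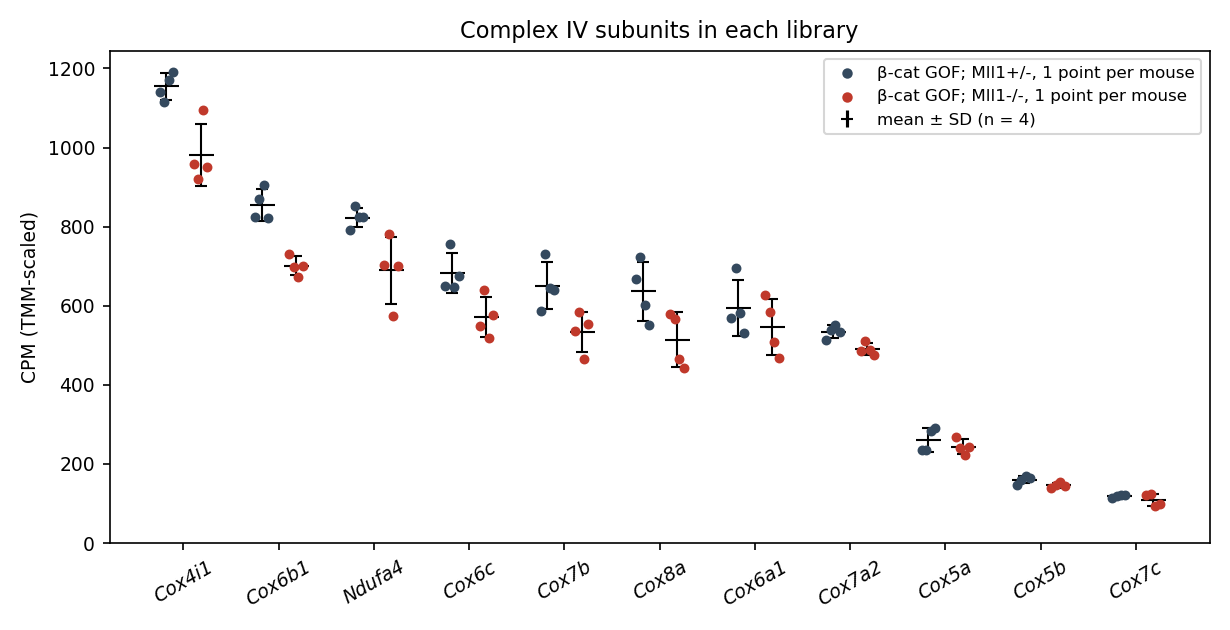
CPM of the 11 nuclear subunits of complex IV in each of the 8 libraries (dark points labelled Mll1+/-, red points labelled Mll1-/-), with the mean and SD of the 4 libraries of a label. *Cox4i1*, *Cox6b1*, *Ndufa4*, *Cox6c*, *Cox7b* and *Cox7a2* show no overlap between the labels.

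Summed over its 15 genes, complex IV made up 5955, 6015, 5555 and 5543 CPM in the knockout-labelled libraries and 6540, 7082, 6796 and 6594 CPM in the control-labelled ones. The sums did not overlap, and neither did the shares of the nuclear counts (0.752 to 0.809% against 0.838 to 0.899%), a scale that does not use TMM. The sum over all 89 genes was 25300 to 26190 against 26240 to 28750 CPM, so that the labels nearly met. Its shares of nuclear counts overlapped. Sums of complexes I, II, III and V overlapped on the CPM scale.

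**Figure D4:**
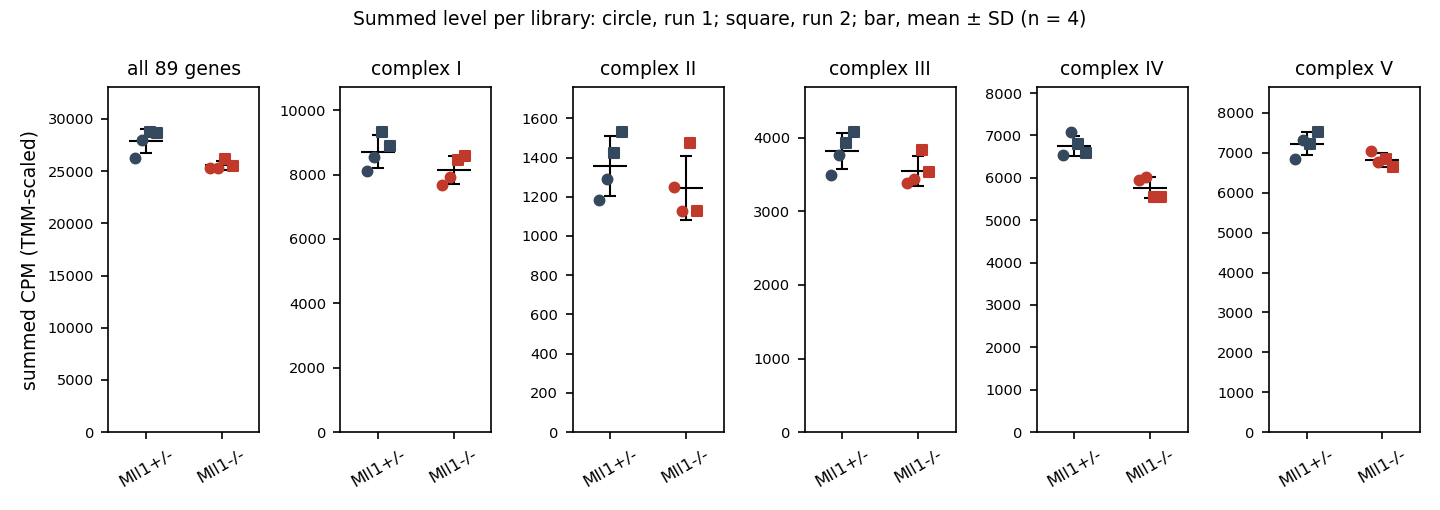
Summed CPM per library of all 89 genes and of complexes I to V (1 point per mouse, circles for run 1 and squares for run 2, bar for the mean and SD of 4 libraries). Complex IV is separated between the labels, with 5543 to 6015 against 6540 to 7082 CPM.

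Of the 4 isoform genes of complex IV, 3 had lower values, and the libraries of all 4 overlapped. *Cox7a2l*, a relative of subunit 7a that joins complexes III and IV, reached 174.1 to 278.4 against 238.1 to 275.2 CPM (log2 fold change -0.26, SE 0.15, edgeR adjusted p = 0.655). Its highest value was that of knockout-labelled mouse 3, and without it the log2 fold change was -0.39 and the labels did not overlap. *Cox7a1*, *Cox6b2* and *Ndufa4l2* were low (1.71 to 8.98, 5.95 to 18.9 and 0.325 to 1.12 CPM over all libraries).

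The genes of complex III were lower in 7 of 9 cases, with a median of -0.12. *Uqcrh*, the hinge protein beside cytochrome c1, led them and was the only one without overlap. It reached 565.7, 602, 496.1 and 545.6 CPM in the knockout-labelled and 740.3, 777.3, 713.3 and 624.6 CPM in the control-labelled libraries, a log2 fold change of -0.37 (SE 0.10, edgeR adjusted p = 0.341). The difference was nearly equal in the runs, with -0.38 in run 1 and -0.36 in run 2 (differences of mean log2(CPM + 0.5)). The Rieske protein *Uqcrfs1* had -0.17, with -0.35 in run 2 and 0.0040 in run 1.

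The 2 members of complex III with higher values, *Cyc1* and *Uqcrc1*, both had their highest value in knockout-labelled mouse 3. Both were also higher in run 1, which does not hold that mouse. *Cyc1*, cytochrome c1, reached 202.5, 155.9, 370.5 and 208.7 CPM against 173.3, 168.3, 177.1 and 213.1 CPM. The value of knockout-labelled mouse 3 was far above the other 7, and the log2 fold change of 0.36 (SE 0.24, edgeR adjusted p = 0.700) was 0.046 without it. The core protein *Uqcrc1* reached 697 CPM in knockout-labelled mouse 3 and 297.4 to 573.3 CPM in the other 7 libraries, and its log2 fold change of 0.13 became -0.16 without that mouse. The core protein *Uqcrc2* gave -0.19, and -0.41 without knockout-labelled mouse 3.

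Cytochrome c itself, the mobile carrier between complexes III and IV, had a log2 fold change of -0.37 (SE 0.19, edgeR adjusted p = 0.599). *Cycs* reached 27.38, 35.51, 28.72 and 24.96 CPM in the knockout-labelled and 31.95, 32.34, 45.16 and 41.71 CPM in the control-labelled libraries. The labels overlapped in run 1, where the difference was -0.043, and were apart in run 2, where it was -0.69. Its copy *Gm10053* had 30.9 ± 3.45 against 36.3 ± 7.604 CPM (log2 fold change -0.23, edgeR adjusted p = 0.762).

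Complex I held the single genes with the lowest log2 fold changes of all 89, and both are assembly factors, which help to build the complex and are not part of it. *Ndufaf4* reached 88.7, 87.2, 92.3 and 76.5 CPM in the knockout-labelled and 98.0, 130.2, 164 and 137.5 CPM in the control-labelled libraries. All knockout-labelled values were below all control-labelled values, and the log2 fold change was -0.62 (SE 0.16, edgeR adjusted p = 0.280). The difference was -0.36 in run 1 and -0.83 in run 2. *Ndufaf1* reached 32.0, 36.0, 37.2 and 31.5 CPM against 44.8, 55.9, 61.0 and 43.3 CPM, also without overlap, with a log2 fold change of -0.58 (SE 0.17, edgeR adjusted p = 0.352). It was nearly the same in both runs, at -0.55 and -0.58.

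The libraries of the other 6 assembly factors overlapped. *Ndufaf2* was higher in both runs (0.27 and 0.26), with 66.9 to 94.0 against 58.6 to 71.7 CPM and a log2 fold change of 0.28 (edgeR adjusted p = 0.625), and it shares 65.1% of its 31-base words with the overlapping gene *B230220B15Rik*, though none of its coding words. *Ndufaf6* had -0.32, which came from knockout-labelled mouse 3 with 8.55 CPM against 31.8 to 48.0 CPM in the other 7 libraries, and it was -0.0049 without that mouse. *Ndufaf3*, *Ndufaf5*, *Ndufaf7* and *Ndufaf8* lay between -0.17 and 0.16. Without knockout-labelled mouse 3, *Ndufaf7* had -0.44 and *Ndufaf3* -0.42, *Ndufaf5* went from 0.16 to -0.096, and the median of the 8 assembly factors went from -0.13 to -0.26.

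Among the 29 accessory subunits of complex I, 27 were lower, with a median of -0.12 and 21 lower in both runs. *Ndufb5* reached 332.5, 331.3, 290.9 and 303 CPM against 355, 388.6, 423.8 and 395.4 CPM (log2 fold change -0.31, SE 0.099, edgeR adjusted p = 0.407). *Ndufb8* reached 221.9 to 242.9 against 245.6 to 302.9 CPM (log2 fold change -0.25, SE 0.11, edgeR adjusted p = 0.531). These were the pair of accessory subunits without overlap, and both differed more in run 2 (-0.46 and -0.37) than in run 1 (-0.16 and -0.12). *Ndufs4* had a value as low as *Ndufb5*, -0.31, but its libraries overlapped, with 117 to 194.6 against 163.9 to 237.2 CPM. Without knockout-labelled mouse 3, which held the 117 CPM, it had -0.18 and *Ndufb5* -0.28. *Ndufa10* and *Ndufb7* were the 2 with higher values, 0.16 and 0.18, which were 0.057 and 0.045 without knockout-labelled mouse 3.

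The 7 core subunits, which carry the flavin and the iron-sulfur clusters, had a median of -0.054 and 4 of 7 lower. Without knockout-labelled mouse 3 the median was -0.115 with 5 of 7 lower, near the -0.103 of the accessory subunits, and it was 0.051 without knockout-labelled mouse 2, 0.022 without control-labelled mouse 3 and 0.092 without control-labelled mouse 4. *Ndufs7* and *Ndufv1* had higher values (0.22 and 0.17). Without knockout-labelled mouse 3 the log2 fold change of *Ndufv1* was 0.0012 and that of *Ndufs7* 0.043. *Ndufs3* had the lowest value of the core, -0.18, and -0.28 without knockout-labelled mouse 3. No core subunit had an unadjusted p under 0.05 or libraries without overlap.

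All 4 genes of complex II had lower values, and their libraries overlapped. *Sdhd*, which anchors the complex in the membrane, reached 343.3 to 410.9 against 367 to 519.5 CPM (log2 fold change -0.21, SE 0.13, edgeR adjusted p = 0.687), with 0.10 in run 1 and -0.49 in run 2. The iron-sulfur subunit *Sdhb* had -0.14, the second anchor *Sdhc* -0.068 and the flavoprotein *Sdha* -0.029. Knockout-labelled mouse 3 held the highest *Sdha* value of all libraries, 429.7 CPM against 260.2 to 371.8 CPM, and without it *Sdha* had -0.22, *Sdhb* -0.26, *Sdhc* -0.195 and *Sdhd* -0.18, with a median of -0.21 in place of -0.105.

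In complex V, 12 of 16 genes had lower values, with a median of -0.12. In the F1 part, which holds the catalytic head and the central stalk, 3 of 5 genes were lower and the median was -0.013. In the Fo part and peripheral stalk, 9 of 10 were lower and the median was -0.16. Without knockout-labelled mouse 3 the medians were -0.076 and -0.093, and the F1 median was above 0 without knockout-labelled mouse 2 (0.061), knockout-labelled mouse 4 (0.069) or control-labelled mouse 4 (0.035), and the parts were not tested against each other. *Atp5c1*, the gamma subunit of the central stalk, reached 742.1, 787.2, 646.3 and 601.5 CPM against 771.3, 834.9, 922.9 and 932 CPM (log2 fold change -0.32, SE 0.11, edgeR adjusted p = 0.480). The labels overlapped only in run 1, where the difference was -0.070, and it was -0.57 in run 2.

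*Atp5d*, the delta subunit of the same stalk, was the 1 member that was higher without overlap. It reached 283.8, 264.1, 353.6 and 276.2 CPM against 259.1, 259.7, 225.4 and 235.8 CPM, a log2 fold change of 0.265 (SE 0.12, edgeR adjusted p = 0.554). The gap between the labels was 264.1 against 259.7 CPM, and without knockout-labelled mouse 3 the log2 fold change was 0.16 and the labels still did not overlap. *Atp5b*, which holds the catalytic sites and was the most counted member, had 0.16 and *Atp5a1* -0.013, and without knockout-labelled mouse 3 they had 0.071 and -0.11.

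The ring of subunit c, through which the protons pass, is encoded by 3 genes with different mitochondrial targeting peptides. *Atp5g1* reached 101.8 to 108.8 against 112.2 to 130.8 CPM without overlap (log2 fold change -0.21, SE 0.11, edgeR adjusted p = 0.585). *Atp5g3*, the most abundant of the 3 at 540 TPM, reached 574.3 to 806.4 against 742.3 to 855.2 CPM with overlap (-0.17, and -0.0997 without knockout-labelled mouse 3), and *Atp5g2* was low at 10.3 TPM (-0.14, and -0.087 without that mouse). *Gm10039*, which shares 93.7% of the coding words of *Atp5g1*, held more counts than it (22825 against 14084) and had -0.26, also without overlap. The copies of other members differed in size of change. *Cox6c2* with -0.33 and *Uqcrh-ps1* with -0.43 were among the lowest, both without overlap, against 2.94% of tested genes for lower values. Others lay near 0 with overlap, such as *Gm11633* (-0.031, copy of *Cox5a*), *Gm10250* (-0.061, of *Atp5h*) and *Gm6444* (-0.012, of *Ndufb11*). The reads of a copy and its parent may be exchanged in mapping, so copies are not separate evidence.

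**Figure D5:**
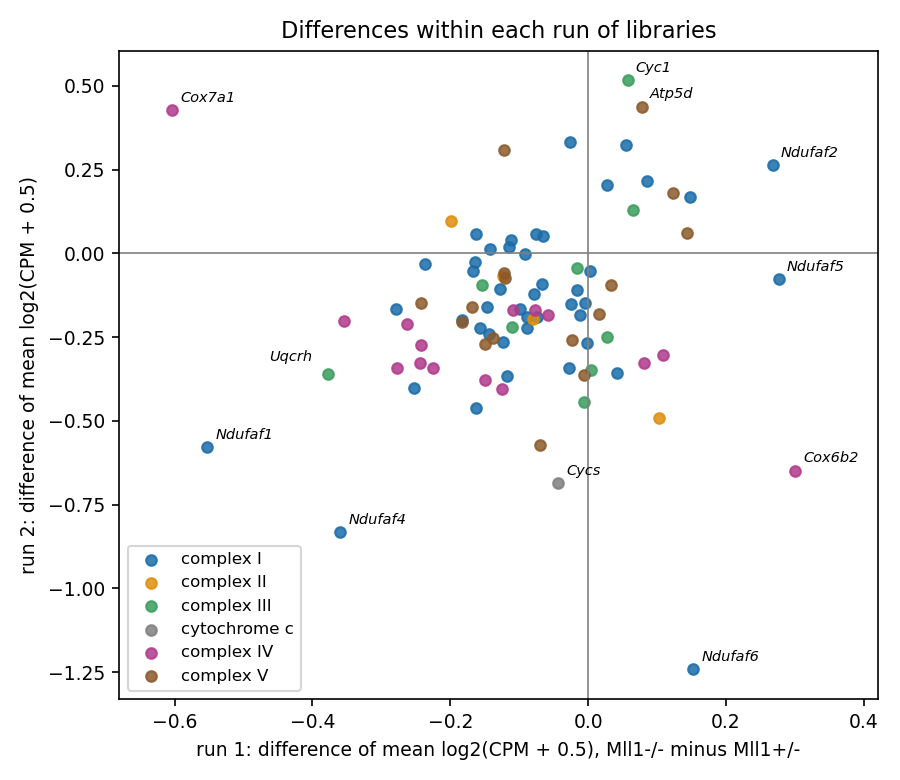
Difference of mean log2(CPM + 0.5) between the labels (Mll1-/- minus Mll1+/-, 2 libraries each) in run 1 against run 2 for the 89 genes, coloured by complex. 57 members lie to the lower left of the zero lines, lower in both runs, and 10 to the upper right.

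Within each run of libraries, the median difference of the members was -0.088 in run 1 and -0.17 in run 2, against -0.0045 and -0.030 over all tested genes. 57 of the 89 members were lower in both runs, against 29.7% of tested genes. Higher in both were 10 of the 89, against 4409 of the 16445 tested genes. Among the 10 were *Ndufaf2*, *Ndufa10*, *Ndufs7*, *Ndufv1*, *Cyc1*, *Uqcrc1*, *Atp5b*, *Atp5d* and *Atp5s*, named after their values were seen. In complex IV, 9 of 11 subunits were lower in both runs, with medians of -0.15 and -0.30. Of the 14 members with a higher value in the knockout-labelled libraries, 12 had their highest value in knockout-labelled mouse 3.

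Base composition and copies moved with these differences. The rank correlation of the log2 fold change with GC content was 0.28 over the 89 members and 0.28 over 16429 tested genes, as a description across genes that share the same 8 libraries. With an offset for GC content in each library, chosen after seeing the data, 70 members were lower and the median was -0.12. Over all tested genes 45.9% were lower with it, and their median was 0.039. Of the complex IV subunits 9 of 11 were lower, *Cox5a* and *Cox7c* being at 0.021 and 0.0042. Under this offset *Cox8a* had -0.51, *Cox4i1* -0.36 and *Cox6b1* -0.33, while *Cox7b* had -0.13, *Ndufa4* -0.12 and *Cox7a2* -0.023. The median of the 11 subunits was -0.17, and 3 had an edgeR unadjusted p under 0.05, against 6 without the offset. *Ndufaf4* had -0.39 and *Atp5d* 0.0205. Of the 45 shorter members, 43 were lower, and of the 44 longer ones 32. With an offset for gene length 67 members were lower, with a median of -0.079, and all 11 complex IV subunits remained lower. Over all tested genes 46.1% were lower with the length offset, and their median was 0.040, against 0.0076 without an offset. Of the 50 members that share under 10% of their coding words, 37 were lower (median -0.10), and of the 39 that share more, 38 were lower (median -0.14).

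The 13 subunits encoded by mitochondrial DNA, which complete the complexes, all had lower values too, by more than the nuclear ones. Their median log2 fold change was -0.46, with a range from -0.76 to -0.29. All 13 were lower in both runs, against 29.7% of tested genes. Like the nuclear members, these 13 are measured on the same libraries and are not independent of each other. At an unadjusted p under 0.05 there were 6, against 3.75% of tested genes for lower values. The smallest edgeR adjusted p of the 13 was 0.251 (*mt-Nd3*, a membrane subunit of complex I). Libraries did not overlap for 2 of them, against 2.94% of tested genes for lower values. The sums over the 13 overlapped widely, with 78240 to 165200 against 113900 to 204400 CPM. Mitochondrial genes held 17.1 to 27.1% of the counts in the knockout-labelled and 23.3 to 30.1% in the control-labelled libraries. Leaving them out of the table before scaling left the medians of the nuclear members at -0.12.

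Genes around the chain were read from lists written with earlier results of these data known, and their smallest edgeR adjusted p was 0.240. Over all tested genes 3.75% were lower and 5.4% higher at an unadjusted p under 0.05, and 2.94% were lower without overlap. The counts of the lists below are to be read beside these shares. For complex II assembly 3 of 4 genes were lower, 2 of them at an unadjusted p under 0.05. *Sdhaf3*, an assembly factor of the iron-sulfur subunit, had 33.7 ± 3.69 against 55.5 ± 9.54 CPM (log2 fold change -0.72, SE 0.17, edgeR adjusted p = 0.240) and *Sdhaf4* -0.36, both without overlap. For complex IV assembly 13 of 19 tested genes were lower, 1 of them at an unadjusted p under 0.05 (*Lrpprc*, which stabilises mitochondrial messages, -0.30). For complex III assembly 5 of 6 were lower and for complex V assembly 2 of 4, none at that p. Of the 8 assembly factors of complex I with other names 3 were lower and 5 higher, with a median of 0.37. Among the higher, *Foxred1*, *Tmem186*, *Acad9* and *Ecsit* had their highest value in knockout-labelled mouse 3 (59.4, 49.8, 36.9 and 24.6 CPM). *Timmdc1* had its lowest there (4.00 CPM). No median without that mouse is given for this list. The complex V subunits *Usmg5* and *2010107E04Rik* had -0.19 and -0.14. Of the 16 genes of the citric acid cycle and pyruvate dehydrogenase 11 were lower (median -0.081) and 1 was higher at an unadjusted p under 0.05, and the 6 carriers for nucleotides and phosphate and porins were all lower (median -0.13).

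The 12 regulators of mitochondrial biogenesis had values on both sides of 0, 7 lower and 5 higher, and their smallest edgeR adjusted p was 0.562. *Tfam*, which packs and transcribes mitochondrial DNA, had 114 ± 4.58 against 138 ± 20.0 CPM (log2 fold change -0.27, SE 0.13, edgeR adjusted p = 0.562). *Nrf1* had 31.2 ± 8.01 against 25.3 ± 7.37 CPM (0.30, SE 0.27), with its highest value, 42.8 CPM, in knockout-labelled mouse 3. *Gabpa*, the ETS factor of the pair, had 44.0 ± 33.8 against 66.4 ± 17.0 CPM (-0.59, SE 0.53). Its value in knockout-labelled mouse 3 was 9.41 CPM, against 29.9 to 90.3 CPM in the other libraries. *Yy1* had 82.5 ± 17.6 against 81.7 ± 11.7 CPM (0.015, SE 0.18). The coactivators *Ppargc1a*, *Ppargc1b* and *Pprc1* had -0.32, -0.15 and -0.24, and *Gabpb1*, *Esrra*, *Tfb1m*, *Tfb2m* and *Polrmt* lay between -0.12 and 0.21. The libraries of all 12 overlapped between the labels.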

How the data were processed

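RNA of 8 mice, 4 per label, was analysed. The authors aligned reads to mm10 with GSNAP (2018-07-04) and counted uniquely mapped reads on genes of Ensembl release 92 with featureCounts 1.6.3, without strand and leaving out reads on more than 1 gene, and deposited raw counts per library. They also deposited a signal table, in which each library's counts are divided by 1 size factor (DESeq2 1.22.2) and rounded, with gene symbols, used here to select the members. Other columns of the deposited tables hold gene length in bases, used for TPM and an offset.

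Genes were filtered with filterByExpr (10 counts, 15 in total), scaled with TMM and fitted with edgeR 4.0.16 (robust quasi-likelihood, label as the only term, two-sided) in R 4.3.3, with Benjamini-Hochberg adjustment over 16445 genes and a threshold of 0.1. The SE is the size of the log2 fold change over the root of F. The tests were also run on simulated counts, with less spread between libraries than these data and larger planted changes than those of the members. No library stood apart in them, so that check says nothing of differences as small as those seen here. The labels give animal numbers but no shared replicate numbers. Replicates are separate mice.

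Members and lists were chosen with earlier results of these data known. Named genes were, per complex, the 3 members with the smallest p and the most abundant one, isoform pairs, complex II, *Cyc1*, *Cycs*, members without overlap and the regulators. Others were named after their values were seen. Alternatives were DESeq2 1.42.0, limma 3.58.1 (voom with quality weights), other scalings and filters, offsets on length and GC content (loess, span 0.3), a block for the run, and each library left out. Within-run differences used log2(CPM + 0.5). Words of 31 bases and GC content came from GENCODE M21 transcripts, promoters from RefSeq. Figures used matplotlib 3.10.9. 1 item is not reported here.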

Additional observations from a re-analysis of the deposited data

Results flagged for a closer look

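In 7 of 76 groups of 4 libraries, 1 library lay far from the other 3 by Dixon's ratio at the 95% level, which chance alone gives in about 1 of 20 groups. *Atp5g1* was at 108.8 CPM in knockout-labelled mouse 4 and at 101.8 to 102.5 CPM in the others of its label. *Atp5g3* was at 855.2 CPM in control-labelled mouse 2, with 742.3 to 753.6 CPM in the others, and *Sdhc* was at 202.4 CPM in the same mouse, with 142.7 to 145.9 CPM. *Cox7a2l* was at 238.1 CPM in control-labelled mouse 4, with 269.5 to 275.2 CPM in the others. *Ndufa2* was at 338.9 CPM in knockout-labelled mouse 1, with 363.3 to 368.2 CPM. *Ndufa4l2* was at 1.123 CPM in control-labelled mouse 3, with 0.646 to 0.703 CPM. The sum over all 89 genes was 26190 CPM in knockout-labelled mouse 3, with 25300 to 25450 CPM in the others.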

How the results depend on the processing

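The 14 genes called over the whole table became 8 with upper quartile scaling, 47 with no filter on low counts, 34 with at least 10 counts in every library, 406 with DESeq2, 103 with limma-voom, 3 with the offset on length, 0 with the run as a block and 0 with the offset on GC content, and 0 to 45 with 1 library left out (45 without knockout-labelled mouse 3). Members called were 4 with DESeq2 and 0 under the other settings, and 7 to 15 members had an unadjusted p under 0.05 with 1 library left out (12 with all, 7 without control-labelled mouse 3). Members below 0 numbered 67 to 78 with 1 library left out. The median of complex V was -0.071 with limma-voom and -0.15 to -0.08 with 1 library left out, and no other median of the members or of a complex moved by more than 1 SD between libraries. Signs were followed for 32 members, those named by the rule above, and 6 of these changed sign. Other members changed sign as well. Of all 89, 75 were below 0 in the main fit, 67 with the offset on length and 70 with the offset on GC content. The shares of all tested genes below 0 were 49.2%, 46.1% and 45.9% in these fits. With 1 library left out, *Cox6b2* ranged from -0.35 to 0.14, *Cox7a1* from -0.13 to 0.41, *Ndufa2* from -0.061 to 0.010, *Sdha* from -0.22 to 0.052, *Sdhc* from -0.20 to 0.092 and *Uqcr10* from -0.096 to 0.026. With limma-voom *Cox6b2* was 0.18 and *Cox7a1* -0.46, with the offset on GC content *Cox7a1* was -0.023 and *Sdha* 0.088, and with the offset on length *Ndufa2* was 0.057 and *Uqcr10* 0.053. The cause was not tested. Subtracting 100 bases from gene lengths moved 24 of 89 TPM levels by more than 1 SD. The labels give no replicate numbers, so mice were not paired one to one, and the run as a block is the only blocked setting.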
